A study of Mus musculus with 12 samples.

Results

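The respiratory chain and ATP synthase genes of mouse embryonic stem cells (mESCs) were described by complex and by genome of origin. The set was taken by gene name. It holds the protein-coding genes whose mouse symbols start with Nduf, Uqcr, Cox4i, Cox5, Cox6, Cox7, Cox8 or Atp5, the genes Sdha to Sdhd, and the mitochondrially encoded mt-Nd, mt-Co, mt-Cyt and mt-Atp genes, without pseudogenes. It numbered 110 of the 39017 genes in the table, with 97 genes in the nuclear genome and 13 in the mitochondrial genome. Of these, 105 passed the filter on low counts and were tested, namely 92 nuclear genes and all 13 mitochondrial genes. A second row under the symbol Ndufb8 was counted among the nuclear genes of complex I and was not tested. Complex I held 47 nuclear and 7 mitochondrial genes, and complex II held 4 nuclear genes. Complex III held 8 nuclear genes and 1 mitochondrial gene, complex IV held 20 and 3, and complex V, the ATP synthase, held 18 and 2. Names follow the older mouse symbols of the table, such as Atp5b for the gene now called Atp5f1b.

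The respiratory chain sits in the inner membrane of the mitochondrion. Complex I takes electrons from NADH and complex II from succinate. Both pass them through ubiquinone to complex III, which hands them by way of cytochrome c to complex IV, where oxygen is reduced. Complexes I, III and IV pump protons, and complex V uses the proton gradient to make ATP. Most subunits are encoded in the nucleus and imported, whereas a small set of core membrane subunits is encoded in mitochondrial DNA, which is transcribed as long precursors by its own polymerase. mESCs draw ATP from both glycolysis and respiration, and the use of each is known to differ between culture media.

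The libraries came from 2 mESC lines, each grown in serum or in 2i, and each of the 4 groups had 3 biological replicates. Whether the 2i replicates of a line came from separate conversions to 2i was not given. J1 is a wild-type male line. The 3B3-3l line has no functional copy of the de novo DNA methyltransferase genes Dnmt3a and Dnmt3b. It carries Dnmt3b and Dnmt3l transgenes under the CAG promoter, so that DNA methylation is held up in 2i. Blasticidin was used to select for stable expression of the Dnmt3l transgene. Serum medium held 15% fetal calf serum and LIF, at 500 U/ml by the labels but at 1000 U/ml by the study's methods, so whether the LIF dose differed between the media is not settled. The 2i medium was serum-free N2B27 with the MEK inhibitor PD0325901 at 1 µM, the GSK3 inhibitor CHIR99021 at 3 µM and 1000 U/ml LIF. The media thus also differ in parts other than the inhibitors. Sodium pyruvate was listed as a supplement of the serum medium alone, and the pyruvate content of the 2i base media was not given. J1 cells in serum were kept on feeder cells that were depleted before analysis, and 3B3-3l cells in serum on gelatin. Line and surface thus cannot be told apart in serum. Feeders were also removed from J1 before the change to 2i, so medium and feeder culture cannot be told apart in J1. Nor can line and feeder removal in the difference of the 2i effects. Libraries were poly(A)-selected and strand-specific and held 37050652 to 44515395 estimated reads. Pluripotency markers were high in every group, with a summed level of 4079 to 5444 CPM (counts scaled to library size) over 7 of 7 genes. Of 12 fibroblast or feeder markers, 1 was under 3 counts in each serum group, against 6 in J1 2i and 5 in 3B3-3l 2i. Their sum was 66.0 to 68.9 CPM in J1 serum, 25.8 to 27.1 in J1 2i, 81.3 to 93.0 in 3B3-3l serum and 16.3 to 16.7 in 3B3-3l 2i. Of the other lists, 3 neural markers summed to 206 to 213 CPM in J1 serum, 110 to 129 in J1 2i, 185 to 212 in 3B3-3l serum and 122 to 129 in 3B3-3l 2i, and 4 mesoderm markers to 5.18 to 5.71, 39.3 to 44.9, 5.92 to 6.55 and 28.2 to 29.7. The 5 primitive endoderm markers summed to 3.06 to 4.47, 5.39 to 5.68, 7.11 to 8.22 and 5.89 to 6.46 CPM, and 5 of 5 were called higher in 3B3-3l than in J1 in serum. The part of these markers in the results was not tested. In bulk RNA, fewer cells of a type and less RNA per cell cannot be told apart.

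Genes of 3 chromosomes stood apart as a whole, and this touches members on them. On chromosome 6, the 769 genes tested had a median log2 level 0.42 to 0.44 above the J1 serum mean in all 3 J1 2i libraries, against 0.0049 to 0.0435 in the 6 libraries of 3B3-3l. On chromosome 11, the 1395 genes tested lay at -0.29 to -0.21 from the J1 serum mean in all 6 libraries of 3B3-3l. On chromosome 8, the 853 genes tested lay at -0.15 to -0.09 from it in 3B3-3l serum and at -0.02 to -0.01 in 3B3-3l 2i. The members tested there were Ndufa4, Ndufa5, Ndufa9 and Ndufb2 on chromosome 6, Cox4i1, Ndufb7 and Ndufa13 on chromosome 8, and Atp5g1, Atp5h, Uqcrq, Uqcr10 and Ndufaf8 on chromosome 11. The part of these chromosome-wide differences in the values of those members was not tested, and counts without them are given below.

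The promoter windows of 3 members that rose in 2i are shown to give the sequence beside the values, from the RefSeq annotation of GRCm38.p6 and reaching from 250 bases before to 50 bases after the gene start. Cox7a1 had the highest fold change in both lines, and its window (chr7:30183921-30184220, plus strand) held 7 CpG dinucleotides against a median of 20 over the 84 member windows and of 7 over all 32851 windows. Sdha (chr13:74350191-74350490, minus strand) held matches to the motif of NRF1, a known regulator of respiratory chain genes. Ndufa9 (chr6:126849095-126849394, minus strand) held a match to the motif of YY1 after the gene start. Capitals mark the motif matches.
Cox7a1: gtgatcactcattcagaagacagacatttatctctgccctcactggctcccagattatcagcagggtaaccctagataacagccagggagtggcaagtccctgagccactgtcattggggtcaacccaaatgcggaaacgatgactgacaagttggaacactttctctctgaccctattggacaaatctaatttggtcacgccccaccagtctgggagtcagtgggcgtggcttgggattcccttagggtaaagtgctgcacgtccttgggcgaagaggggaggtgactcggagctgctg
Sdha: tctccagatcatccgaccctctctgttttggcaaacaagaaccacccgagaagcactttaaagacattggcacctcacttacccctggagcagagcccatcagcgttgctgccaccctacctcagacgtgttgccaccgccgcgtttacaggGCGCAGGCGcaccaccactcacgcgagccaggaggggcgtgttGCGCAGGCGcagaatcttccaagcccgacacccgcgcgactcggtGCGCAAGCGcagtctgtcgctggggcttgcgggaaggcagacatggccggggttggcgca
Ndufa9: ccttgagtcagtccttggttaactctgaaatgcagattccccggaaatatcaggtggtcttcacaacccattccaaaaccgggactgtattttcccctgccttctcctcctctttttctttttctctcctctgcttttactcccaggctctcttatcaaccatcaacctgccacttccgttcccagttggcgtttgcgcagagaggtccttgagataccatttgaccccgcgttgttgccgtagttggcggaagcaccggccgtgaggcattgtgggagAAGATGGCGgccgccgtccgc
The motifs searched were GCGCANGCG for NRF1, CCGGAAGT for the ETS factor GABPA, AANATGGCG for YY1 and TCAAGGTCA for the oestrogen-related receptors, on both strands. The 84 windows belonged to 78 members. The NRF1 letters were present in 27.4% of them (23 windows) against 6.25% of all windows. The YY1 letters were present in 15.5% against 2.38%, the GABPA letters in 5.95% against 3.89% and the receptor letters in 2.38% against 0.423%. Of the 46 windows of members higher in 2i in both lines, 30.4% held the NRF1 letters and 8.70% the YY1 letters, against 22.2% and 25% of the 36 windows of the other tested members. These shares describe the letters in the windows and were not tested. Member windows held more CpG than all windows (medians of 20 and 7), and the NRF1, YY1 and GABPA letters contain CpG. The part of CpG content in the shares was not tested.

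The first question was how the nuclear and the mitochondrial genes of the chain differ between serum and 2i. Nuclear members were mostly higher in 2i in both lines, by small amounts, and mitochondrial members were mostly not called. In J1, 54 of 92 nuclear members were called higher in 2i (58.7%) and 6 lower (6.52%), where 33.2% of all 17885 genes tested were called higher and 32.9% lower (edgeR, adjusted p under 0.05). Their median log2 fold change was 0.24 (quartiles 0.05 and 0.35), and the median of all genes was 0.01. In 3B3-3l, 67 nuclear members were called higher (72.8%) and 6 lower (6.52%), against 32.7% and 32.7% of all genes, with a median of 0.34 (quartiles 0.18 and 0.50) beside 0.01. In both lines, 50 of 92 nuclear members were called higher, against 23.4% of all genes. The 3 called lower in both lines were Cox4i2, Cox7b2 and Ndufaf6, against 24% of all genes, and the J1 call of Ndufaf6 (-0.16, adjusted p = 0.0463) was lost without any 1 of the 6 J1 libraries, with an adjusted p of up to 0.12. That Ndufaf6 call was also lost with no filter on low counts, by DESeq2 and with a block for replicate number. The changes were small. Only 8 of 105 members in J1 and 16 of 105 in 3B3-3l were called with a change of at least 1.5-fold, whereas 36.9% and 36.4% of all genes were.

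J1 2i replicate 3 held the highest level of its group for 89 of 92 nuclear members and replicate 2 the lowest for 73. Without replicate 3 the J1 median was 0.14 in place of 0.24, and 43 nuclear members were called higher and 8 lower. Without members on chromosomes 6, 8 and 11, 47 of 80 nuclear members were called higher and 6 lower in J1 (median 0.23), and 57 higher and 6 lower in 3B3-3l (median 0.32).

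**Figure D1:**
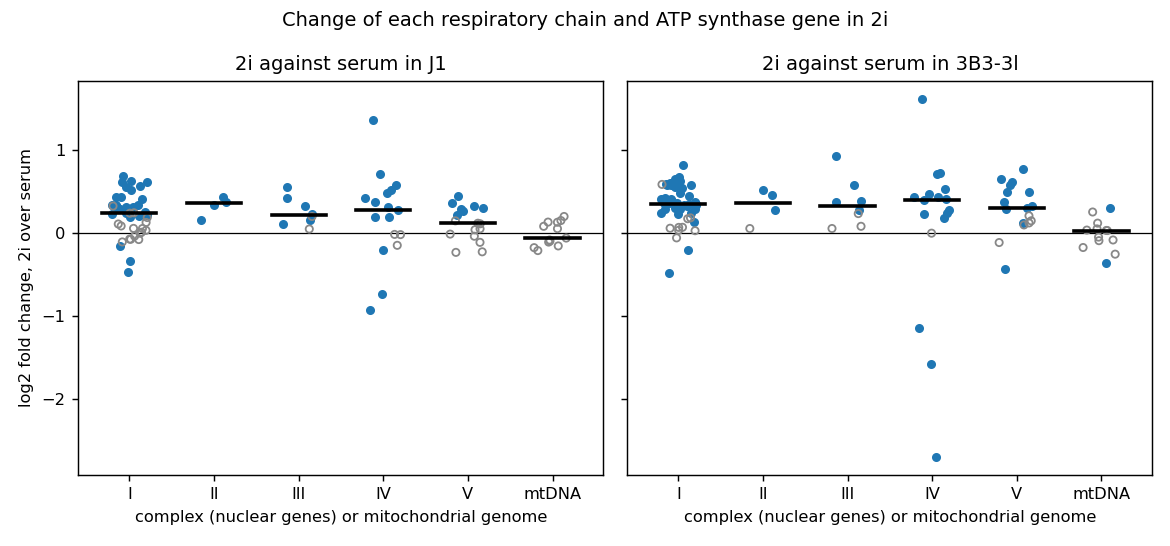
Log2 fold change of 2i over serum for each tested member by complex, with nuclear and mitochondrial genes apart, in J1 and in 3B3-3l. Filled points were called, open points were not, and bars are medians. Most nuclear genes lie above 0 with medians of 0.12 to 0.39, and mitochondrial genes scatter around 0.

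By complex, the nuclear members differed in how many were called. In J1, the share called higher was 26 of 46 in complex I, 4 of 4 in complex II, 6 of 8 in complex III, 11 of 17 in complex IV and 7 of 17 in complex V, with medians of 0.24, 0.36, 0.22, 0.28 and 0.12. In 3B3-3l it was 35 of 46, 3 of 4, 5 of 8, 13 of 17 and 11 of 17, with medians of 0.35, 0.37, 0.33, 0.39 and 0.30. Complex II thus had the highest median in J1 and complex IV in 3B3-3l, and complex V had the lowest in both. Called lower in the same order were 3, 0, 0, 3 and 0 in J1 and 2, 0, 0, 3 and 1 in 3B3-3l. Over all genes 33.2% were called higher and 32.9% lower in J1, and 32.7% and 32.7% in 3B3-3l. The share of complex V called higher in J1, 41.2%, lay closest to that background. Neither the medians nor the counts were compared with a test.

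Complex I was counted by role. Of its 7 nuclear core subunits, which carry the flavin and the iron-sulfur clusters, 6 were called higher in J1 and 7 in 3B3-3l. Over all genes 33.2% and 32.7% were called higher. Ndufv1 holds the flavin that accepts electrons from NADH. It stood at 158, 155 and 161 CPM in J1 serum, 194, 177 and 207 in J1 2i, 159, 145 and 140 in 3B3-3l serum and 184, 194 and 190 in 3B3-3l 2i. The media did not overlap in either line, and the increases were 0.29 ± 0.06 (SE, adjusted p = 0.000556) and 0.36 ± 0.06 (adjusted p = 6.79e-05). Ndufs1, the largest iron-sulfur subunit, read 147, 147 and 154 CPM in J1 serum and 176, 182 and 175 in J1 2i. In 3B3-3l it read 157, 168 and 168 CPM in serum and 183, 181 and 177 in 2i. All 2i libraries were above all serum libraries of their line, by 0.25 ± 0.04 in J1 (adjusted p = 0.000112) and 0.13 ± 0.04 in 3B3-3l (adjusted p = 0.0141). The 3B3-3l call for Ndufs1 was lost without 3B3-3l 2i replicate 2 or 3B3-3l serum replicate 1, with an adjusted p of up to 0.0974. It was also lost with no filter on low counts and with at least 10 counts in every library.

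Accessory subunits of complex I surround the core. Of 30 tested, 16 were called higher in J1 and 24 in 3B3-3l, and 0 were called lower in either line, whether by edgeR, by DESeq2 or at an unadjusted p under 0.05. By edgeR, 33.2% of all genes were called higher and 32.9% lower in J1, and 32.7% and 32.7% in 3B3-3l. The log2 fold change was above 0 for 30 of 30 in 3B3-3l and for 24 of 30 in J1. Ndufb9, an accessory subunit of the membrane arm, was at 75.5, 63.5 and 58.7 CPM in 3B3-3l serum and at 119, 120 and 110 in 3B3-3l 2i. These groups lay far apart, with an increase of 0.82 ± 0.10 (adjusted p = 3.95e-06), the highest among called complex I members of 3B3-3l. In J1 it was at 75.3, 79.3 and 78.7 CPM in serum and 94.5, 75.1 and 107 in 2i, which overlapped, and the difference of 0.24 ± 0.10 was not called (adjusted p = 0.0501). It was called with 5 alternative settings, with an adjusted p of 0.0139 with no filter, 0.0351 with length offsets, 0.0432 by DESeq2, 0.0466 with scaling on nuclear genes and 0.0499 with copies added, and without J1 2i replicate 2 it was 0.37 (adjusted p = 0.0013). Ndufa9, a subunit of the peripheral arm near the ubiquinone site, read 115, 115 and 119 CPM in J1 serum and 187, 176 and 200 in J1 2i. In 3B3-3l it read 108, 117 and 108 CPM in serum and 143, 148 and 144 in 2i. The media were apart in both lines, with increases of 0.69 ± 0.05 in J1 (adjusted p = 8.84e-09) and 0.38 ± 0.05 in 3B3-3l (adjusted p = 7.61e-06). Ndufa9 is on chromosome 6, where the median of all 769 genes in this contrast was 0.44 in J1 and 0.03 in 3B3-3l. The same holds for Ndufa5 (0.62 ± 0.09 in J1, 0.49 ± 0.09 in 3B3-3l) and Ndufb2 (0.61 ± 0.08 and 0.38 ± 0.08), which were called in both lines.

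The 9 assembly factors of complex I, which help build the complex without staying in it, were called in both directions. In J1, 4 were called higher and 3 lower, and in 3B3-3l 4 higher and 2 lower, with medians of 0.11 and 0.07. Over all genes 33.2% and 32.9% were called in J1 and 32.7% and 32.7% in 3B3-3l, so these shares, with so few genes, lie near the background. Ndufaf1 rose in both lines, from 19.3, 21.3 and 17.6 CPM to 29.4, 28.9 and 31.1 in J1 and from 23.4, 21.1 and 23.5 to 34.4, 35.1 and 31.9 in 3B3-3l. Serum and 2i did not overlap, and the changes were 0.62 ± 0.07 (adjusted p = 1.44e-06) and 0.58 ± 0.07 (adjusted p = 2.46e-06). Ndufaf7, a methyltransferase that modifies a core subunit, moved in opposite directions. It read 23.8, 25.9 and 25 CPM in J1 serum and 28.5, 28.7 and 28.7 in J1 2i, but 27.6, 29.0 and 29.8 in 3B3-3l serum and 24.6, 25.9 and 24.7 in 3B3-3l 2i. The media did not overlap in either line, with changes of 0.20 ± 0.05 in J1 (adjusted p = 0.00354) and -0.20 ± 0.05 in 3B3-3l (adjusted p = 0.00388). Ndufaf2 fell in J1 by 0.47 on the log2 scale (SE 0.13, adjusted p = 0.00441), from 17.3, 21.7 and 17.7 CPM to 12.6, 11.8 and 16.7. Serum and 2i of J1 did not overlap for Ndufaf2, and in 3B3-3l the difference was -0.06 ± 0.13 and was not called.

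Complex II, succinate dehydrogenase, is encoded by 4 nuclear genes and links the chain to the citric acid cycle. Sdha, the flavoprotein that oxidises succinate, stood at 251, 232 and 245 CPM in J1 serum and 311, 301 and 311 in J1 2i. In 3B3-3l it stood at 241, 255 and 250 CPM in serum and 350, 360 and 356 in 2i. The media were well apart in both lines, by 0.34 ± 0.04 (adjusted p = 4.6e-06) and 0.52 ± 0.04 (adjusted p = 3.77e-08). Sdhb, the iron-sulfur subunit, rose by 0.44 ± 0.07 in J1 (adjusted p = 2.58e-05) and 0.46 ± 0.07 in 3B3-3l (adjusted p = 1.68e-05). Sdhd, a membrane anchor, rose by 0.37 ± 0.05 and 0.28 ± 0.05 (adjusted p = 1.41e-05 and 0.000274). Sdhc, the other anchor, was called in J1 (0.16 ± 0.06, adjusted p = 0.021) and not in 3B3-3l (0.05 ± 0.06). The J1 call for Sdhc was lost without J1 2i replicate 3, J1 serum replicate 1 or J1 serum replicate 2, with an adjusted p of up to 0.1.

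Complex III had 8 nuclear members. Uqcrb, a small subunit near the ubiquinone site, was the member of complex III with the highest fold change in both lines. It read 74.7, 78.7 and 78.9 CPM in J1 serum, 108, 110 and 125 in J1 2i, 70.4, 71.5 and 73.5 in 3B3-3l serum and 138, 144 and 128 in 3B3-3l 2i. Every 2i library was above every serum library, by 0.56 ± 0.06 in J1 (adjusted p = 5.85e-07) and by 0.93 ± 0.06 in 3B3-3l (adjusted p = 1.22e-09). Uqcrc2, a core-protein subunit, rose by 0.42 ± 0.04 in J1 (adjusted p = 4.21e-07) and 0.38 ± 0.04 in 3B3-3l (adjusted p = 1.42e-06). Uqcrfs1, the Rieske iron-sulfur protein, read 119, 120 and 125 CPM in J1 serum and 132, 126 and 136 in J1 2i. Its groups were apart by little, and the call (0.11 ± 0.05, adjusted p = 0.0408) was lost in 4 of 6 fits that left out 1 library, without J1 2i replicate 1 or 3 or J1 serum replicate 1 or 2, with an adjusted p of up to 0.139. The call was also lost in 6 of 9 alternative settings, DESeq2 among them. In 3B3-3l Uqcrfs1 differed by 0.05 ± 0.05 and was not called.

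Complex IV, cytochrome c oxidase, holds the members with the largest changes of all, and these were isoforms of single subunits. Cox7a1 is the form of subunit 7a found in heart and skeletal muscle, and Cox7a2 is the form found in most tissues. Cox7a1 read 7.12, 6.53 and 7.34 CPM in J1 serum, 16.6, 14.8 and 22.7 in J1 2i, 6.92, 5.61 and 5.25 in 3B3-3l serum and 18.4, 19.6 and 16.4 in 3B3-3l 2i. All 6 libraries in 2i were above all 6 in serum, and the fold was 2.58 in J1 (log2 1.36 ± 0.14, adjusted p = 3.1e-07) and 3.065 in 3B3-3l (1.62 ± 0.14, adjusted p = 4.87e-08). Cox7a2 was at 100, 105 and 106 CPM in J1 serum and 127, 118 and 141 in J1 2i, and at 104, 97.3 and 90.2 in 3B3-3l serum and 160, 163 and 151 in 3B3-3l 2i. Both lines were apart by medium, with increases of 0.31 ± 0.07 (adjusted p = 0.000577) and 0.71 ± 0.07 (adjusted p = 9.87e-08). Per length, the level of Cox7a1 was 35.5 RPKM (reads per kilobase of effective length, scaled to library size) in J1 serum and 95.5 in J1 2i, beside 177 and 225 for Cox7a2.

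Ndufa4l2 is a paralogue of Ndufa4, a subunit first assigned to complex I and now placed in complex IV, and is known for its induction by low oxygen. Its level was 13, 9.04 and 15.6 CPM in J1 serum and 14.2, 16.2 and 22.1 in J1 2i, but 16.5, 19.8 and 16.5 in 3B3-3l serum and 2.12, 2.36 and 3.71 in 3B3-3l 2i. The 3B3-3l 2i libraries were below all others, whereas the J1 groups overlapped. In 3B3-3l the gene was 6.49-fold lower in 2i (log2 -2.70 ± 0.23, adjusted p = 2.88e-08), the largest change of any tested member. In J1 it was called higher (0.48 ± 0.19, adjusted p = 0.0349), and the call was lost without J1 2i replicate 3, J1 serum replicate 1 or J1 serum replicate 2, with an adjusted p of up to 0.195. By DESeq2 and with length offsets the J1 call was lost too. Ndufa4 itself read 111, 117 and 110 CPM in J1 serum, 179, 173 and 203 in J1 2i, 118, 110 and 115 in 3B3-3l serum and 166, 163 and 146 in 3B3-3l 2i. Serum and 2i did not overlap in either line, with increases of 0.72 ± 0.06 in J1 (adjusted p = 6.64e-08) and 0.47 ± 0.06 in 3B3-3l (adjusted p = 7.65e-06), beside a chromosome 6 median of 0.44 in J1.

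**Figure D2:**
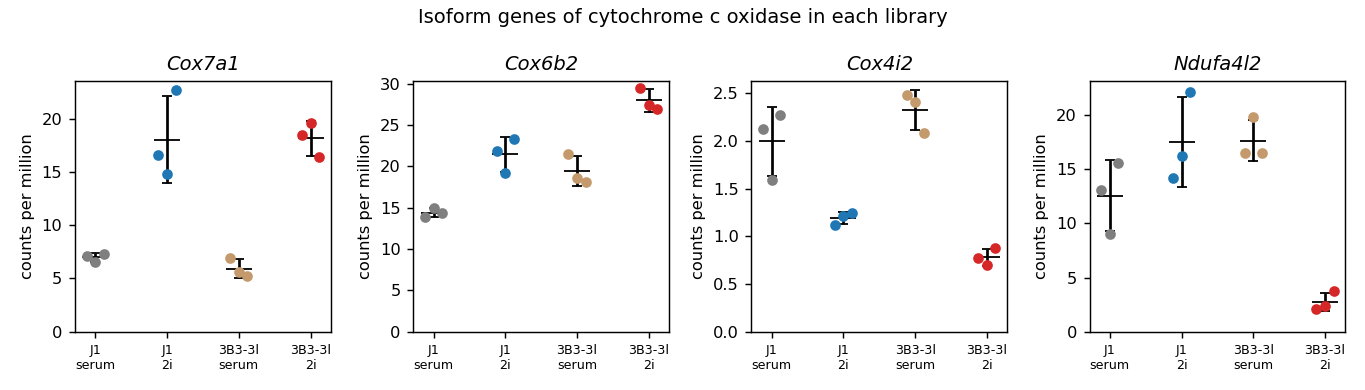
Levels in CPM of Cox7a1, Cox6b2, Cox4i2 and Ndufa4l2, isoforms or paralogues of complex IV subunits, in each library of the 4 groups. Points are libraries. Cox7a1 and Cox6b2 were higher in 2i in both lines, Cox4i2 was lower in both, and Ndufa4l2 was low in 3B3-3l 2i, at 2.12 to 3.71 CPM.

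Cox4i2, the hypoxia-linked form of subunit 4, was low and fell in both lines. It read 2.13, 1.59 and 2.28 CPM in J1 serum and 1.12, 1.22 and 1.24 in J1 2i, and 2.48, 2.41 and 2.09 in 3B3-3l serum and 0.769, 0.695 and 0.877 in 3B3-3l 2i. No serum library overlapped with a 2i library, and the gene fell by 0.74 on the log2 scale in J1 (SE 0.16, adjusted p = 0.000936) and by 1.58 in 3B3-3l (SE 0.17, adjusted p = 7.38e-07). Cox6b2, the testis form of subunit 6b, rose by 0.58 ± 0.08 in J1 (adjusted p = 1.16e-05) and 0.53 ± 0.08 in 3B3-3l (adjusted p = 2.06e-05). Its levels were 13.9, 14.9 and 14.3 CPM in J1 serum, 21.8, 19.2 and 23.4 in J1 2i, 21.5, 18.7 and 18.1 in 3B3-3l serum and 29.5, 27.5 and 27.0 in 3B3-3l 2i. The media were apart within each line, and J1 2i overlapped with 3B3-3l serum. Cox6b1, the common form, rose by 0.52 ± 0.08 and 0.73 ± 0.08 (adjusted p = 4.36e-05 and 1.13e-06), so both forms of subunit 6b were higher in 2i.

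Other tissue-restricted forms were near or below detection. Cox6a2 was at 0.206 CPM or less, Cox8b at 0.0721 or less and Cox8c at 0.191 or less in every library, where 3 counts correspond to 0.0674 to 0.0810 CPM, and none of these was tested. Cox8c read 0.191, 0.169 and 0.163 CPM in J1 serum and 0.131, 0.167 and 0.155 in 3B3-3l serum, against 0.0721 or less in all 2i libraries, so serum and 2i were apart at levels of a few reads. Cox7b2, the testis form of subunit 7b, was at 0.217 to 0.554 CPM in J1 serum and 0.182 to 0.220 in J1 2i, and at 0.621 to 0.783 in 3B3-3l serum and 0.255 to 0.433 in 3B3-3l 2i. It fell in 3B3-3l by 1.14 on the log2 scale (SE 0.32, adjusted p = 0.0052). Its J1 call (-0.92 ± 0.38, adjusted p = 0.0415) was lost without any 1 of 5 of the 6 libraries, J1 serum replicate 3 being the exception, with an adjusted p of up to 0.282. By DESeq2, with length offsets and with a block for replicate number the J1 call was lost too.

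Complex V had the lowest nuclear medians. Atp5a1 and Atp5b encode the alpha and beta subunits of the catalytic head. Atp5b was the nuclear member with the highest level per length in all 4 groups, at 1540 ± 36.3 RPKM in J1 serum and 1409 ± 93.1 in J1 2i (SD, n = 3). Atp5a1 read 1213, 1168 and 1269 CPM in J1 serum, 1156, 1187 and 1273 in J1 2i, 1403, 1435 and 1387 in 3B3-3l serum and 1268, 1313 and 1321 in 3B3-3l 2i. The J1 groups overlapped, the 3B3-3l groups did not, and neither difference was called (-0.01 ± 0.05 and -0.11 ± 0.05, adjusted p = 0.83 and 0.0523). In 3B3-3l Atp5a1 was called lower with 5 alternative settings (DESeq2 size factors, scaling on nuclear genes, at least 10 counts in every library, DESeq2, and the 6 libraries compared), with values of -0.17 to -0.12, and without 3B3-3l 2i replicate 2 (-0.15, adjusted p = 0.0383). Atp5b differed by -0.04 ± 0.05 in J1, which was not called. It differed by 0.12 ± 0.05 in 3B3-3l, with a call (adjusted p = 0.0452) that was lost without 3B3-3l 2i replicate 2 or 3 or 3B3-3l serum replicate 2 or 3, with an adjusted p of up to 0.289. The Atp5b call was also lost in 6 of 9 alternative settings, among them DESeq2 size factors and scaling on nuclear genes. By contrast, Atp5g3, 1 of 3 genes for the same subunit c of the rotor ring, read 210, 214 and 206 CPM in J1 serum, 275, 277 and 308 in J1 2i, 207, 208 and 207 in 3B3-3l serum and 290, 291 and 293 in 3B3-3l 2i. Its media were apart in both lines, by 0.45 ± 0.05 (adjusted p = 4.59e-07) and 0.49 ± 0.05 (adjusted p = 1.53e-07). Atp5g1, another subunit c gene, rose by 0.32 ± 0.09 in J1 (adjusted p = 0.00593) and 0.78 ± 0.09 in 3B3-3l (adjusted p = 1.91e-06). Without J1 2i replicate 3 its J1 value was 0.21 (adjusted p = 0.0367). The third, Atp5g2, was listed at 0 counts in all 12 libraries, while 2 near-identical copies of it elsewhere in the table, Gm10231 and Gm10175, held 10344 reads on average, and whether reads of Atp5g2 were assigned to them was not tested. Summed with the copies, Atp5g2 was called lower in 2i in J1 (-0.20, adjusted p = 0.00537) and was not called in 3B3-3l (0.09, adjusted p = 0.152), and the difference of the effects was 0.29 (adjusted p = 0.00936).

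Near-identical copies limit some other members. In all, 31 members had at least 1 copy in the table, and for 10 the copies held more than 10% of the reads of the gene. Ndufs5, a complex I subunit, had 21 reads on average and its copy BC002163 held 1988. Alone it was not called in either line (0.33 ± 0.28 and 0.59 ± 0.26). With the copy added, the sum was called higher by 0.41 in J1 (adjusted p = 0.00028) and by 0.80 in 3B3-3l (adjusted p = 2.04e-07). For Cox7c, a small subunit of complex IV, the copies held more reads than the gene (4255 against 3405), and its call lower in J1 (-0.20 ± 0.08, adjusted p = 0.0339) was lost when they were added (-0.06, adjusted p = 0.604). That call was also lost without J1 2i replicate 1 or 2 or J1 serum replicate 2 or 3, with an adjusted p of up to 0.154. With copies added for all members, 61 and 75 members were called in J1 and in 3B3-3l, beside 60 and 75.

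The 13 mitochondrially encoded members were set beside the nuclear ones. By edgeR 0 were called between 2i and serum in J1, with 0 at an unadjusted p under 0.05 and 0 by DESeq2, where their log2 fold changes lay between -0.21 and 0.20 with a median of -0.06. mt-Nd2 was called lower there with no filter on low counts (-0.20, adjusted p = 0.0474), and mt-Nd2 (-0.30, adjusted p = 0.0496) and mt-Nd4 (-0.24, adjusted p = 0.0414) were without J1 serum replicate 3. In 3B3-3l their median was 0.03, with mt-Cytb called higher and mt-Atp6 called lower. mt-Cytb, the only mitochondrial gene of complex III, read 903, 993 and 1131 CPM in 3B3-3l serum and 1326, 1261 and 1155 in 3B3-3l 2i. The groups did not overlap (0.31 ± 0.10, adjusted p = 0.0102), and the call was lost without 3B3-3l serum replicate 1 (adjusted p = 0.0522). mt-Atp6, a membrane subunit of complex V, read 1032, 965 and 1280 CPM in 3B3-3l serum and 1054, 665 and 832 in 3B3-3l 2i. These overlapped, and the call (-0.36 ± 0.15, adjusted p = 0.0473) was lost without 3B3-3l 2i replicate 2 or 3 or 3B3-3l serum replicate 1 or 3, with an adjusted p of up to 0.216. The mt-Atp6 call was also lost by DESeq2 and with a block for replicate number. mt-Co3, a core subunit of complex IV, was not called (-0.25, adjusted p = 0.0738) but was called lower in 3B3-3l 2i with no filter, with at least 10 counts in every library and with the 6 libraries compared (adjusted p = 0.00521, 0.0339 and 0.0487). It was also called without 3B3-3l 2i replicate 1 or 3B3-3l serum replicate 1 or 2, and mt-Nd2 was called lower without 3B3-3l 2i replicate 1 (-0.31, adjusted p = 0.0398). The standard errors of the mitochondrial fold changes were 0.09 to 0.28, against 0.04 to 0.07 for the genes of complex II.

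The share of all reads taken by each genome was compared next. The 97 nuclear members together took 1.22% ± 0.015 of reads in J1 serum (SD, n = 3), 1.37% ± 0.081 in J1 2i, 1.18% ± 0.045 in 3B3-3l serum and 1.38% ± 0.023 in 3B3-3l 2i. The lowest 2i library held 1.30% and the highest serum library 1.24%, so the media did not overlap. The 13 mitochondrial members took 1.33% ± 0.181 in J1 serum, 1.29% ± 0.135 in J1 2i, 1.33% ± 0.178 in 3B3-3l serum and 1.26% ± 0.127 in 3B3-3l 2i. All 4 groups overlapped, with single libraries from 1.15% to 1.53%. Poly(A) selection captures mitochondrial transcripts by their short tails, so these shares are those of captured RNA.

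**Figure D3:**
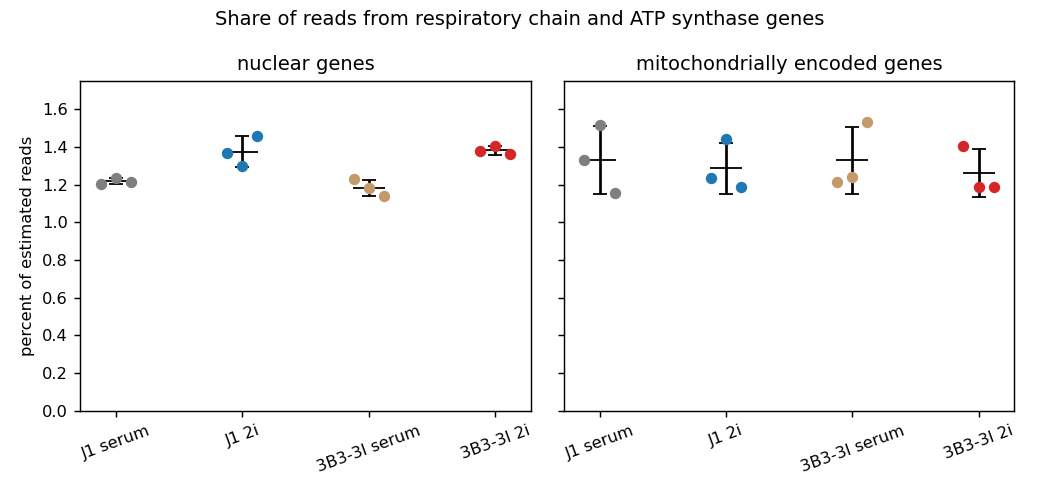
Percent of estimated reads from nuclear members (left) and from mitochondrially encoded members (right) in each library. Points are libraries, and lines are the mean ± SD of 3. The nuclear share was higher in every 2i library (1.30% to 1.46%) than in every serum library (1.14% to 1.24%), and the mitochondrial shares overlapped in all 4 groups.

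Per length, the median of the mitochondrial genes was above that of the nuclear genes of the same complex in all 12 libraries, though single nuclear genes such as Atp5b reached mitochondrial levels. The nuclear medians left out the 9 assembly factors of complex I. They kept the 8 isoform genes of complex IV, some of them near or below detection, so the complexes rest on unlike sets. The ratio of the median RPKM of mitochondrial to nuclear members in complex I was 4.83 ± 0.797 in J1 serum, 3.71 ± 0.760 in J1 2i, 5.77 ± 0.989 in 3B3-3l serum and 4.25 ± 0.703 in 3B3-3l 2i. Those of complex IV were 14.5 ± 1.01, 13 ± 2.15, 15.1 ± 2.67 and 10.8 ± 0.607. Those of complex III were 4.21 ± 0.260, 3.90 ± 0.965, 4.82 ± 0.721 and 4.39 ± 0.281, and those of complex V were 5.49 ± 1.03, 5.89 ± 0.169, 6.89 ± 1.36 and 4.56 ± 1.58. In J1, serum and 2i overlapped for each complex. In 3B3-3l they did not overlap in complex I (5.09 to 6.90 in serum, 3.56 to 4.97 in 2i). In complex IV, 3B3-3l serum (13.1 to 18.1) and 3B3-3l 2i (10.2 to 11.4) did not overlap, whereas the 3B3-3l groups overlapped in complexes III and V. mt-Co1, a catalytic subunit of complex IV, had the highest level per length of all members in each group, at 3978 ± 436 RPKM in J1 serum and 3566 ± 286 in 3B3-3l 2i. In this poly(A)-selected RNA, the lowest mitochondrial levels per length were those of mt-Nd5 and mt-Nd6, subunits of complex I, at 325 and 326 RPKM in J1 serum. Differences in capture between mitochondrial transcripts were not tested.

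The next question was whether the lines responded alike, which the design addresses through the difference of their 2i effects. Of 92 nuclear members, 15 had a 2i effect that was called higher in 3B3-3l than in J1 and 6 one that was called lower, against 16.3% and 18.3% of all genes, with a median difference of 0.11 beside -0.03 for all genes. That median was 0.196 without J1 2i replicate 3, and 0.062 and 0.069 without J1 2i replicate 2 and J1 serum replicate 2. The share called higher, 16.3%, was that of the background. By edgeR 0 mitochondrial members were called, with 1 at an unadjusted p under 0.05 and 0 by DESeq2. The difference of mt-Atp6 (-0.49, adjusted p = 0.0901) was called with no filter (-0.48, adjusted p = 0.00489), without 3B3-3l 2i replicate 1 (-0.67, adjusted p = 0.0183) and without J1 serum replicate 2 (-0.65, adjusted p = 0.0392). The count over all members depended on single libraries, with 42 members called without J1 2i replicate 3 and 13 without 3B3-3l 2i replicate 2, in place of 21. Across the 92 nuclear members the 2i effects of the lines, which share no library, had a Pearson correlation of 0.544, and of 0.793 over the 91 members without Ndufa4l2. Both values describe genes, which share the libraries of a line and do not stand for replicates.

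**Figure D4:**
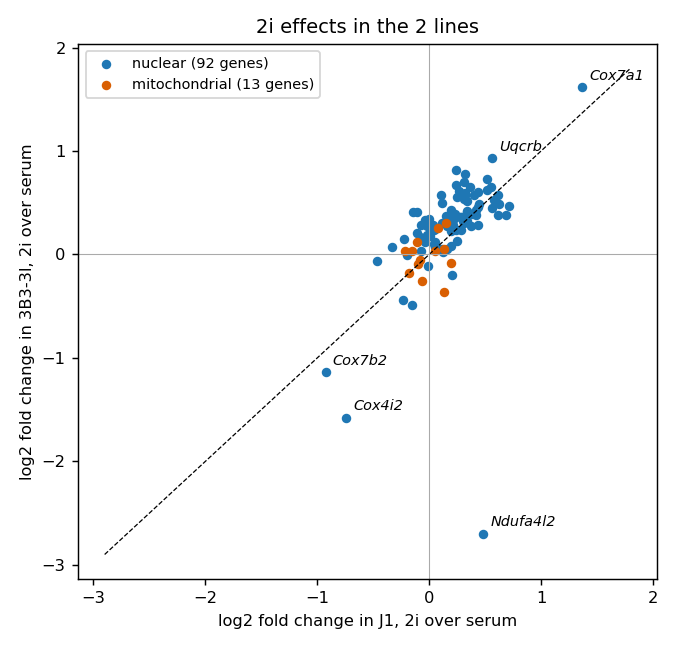
Log2 fold change of 2i over serum in J1 (horizontal) and in 3B3-3l (vertical) for the 92 nuclear and 13 mitochondrial members tested. The dashed line marks equal effects. Ndufa4l2 lies far below it at 0.48 and -2.70, and Cox7a1 at the upper right at 1.36 and 1.62.

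Ndufa4l2 had by far the largest difference, at -3.18 ± 0.30 (adjusted p = 1.2e-06). Cox4i2 also fell further in 3B3-3l (-0.84 ± 0.24, adjusted p = 0.014), and these 2 were the only members called with a difference of at least 1.5-fold. In the other direction, Ndufb9 rose more in 3B3-3l (0.58 ± 0.15, adjusted p = 0.00676), as did Uqcrb (0.37 ± 0.08, adjusted p = 0.00333) and Cox7a2 (0.39 ± 0.09, adjusted p = 0.00385). Cox4i1, the common form of subunit 4, was at 490, 480 and 499 CPM in J1 serum, 446, 391 and 489 in J1 2i, 341, 313 and 279 in 3B3-3l serum and 419, 420 and 400 in 3B3-3l 2i. The J1 media overlapped, the 3B3-3l media did not, and the difference of the effects was 0.56 ± 0.11 (adjusted p = 0.000894), beside a median of 0.23 over all genes of its chromosome 8. Ndufa9 and Ndufa4 rose less in 3B3-3l (-0.30 ± 0.07, adjusted p = 0.00463, and -0.25 ± 0.09, adjusted p = 0.046), beside a median of -0.44 over chromosome 6. The Ndufa4 call was lost in 8 of 12 fits without 1 library, kept only without J1 2i replicate 2, J1 serum replicate 2 or 3B3-3l 2i replicate 1 or 2, with an adjusted p of up to 0.132. It was also lost with a block for replicate number.

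Between the lines, 8 of 92 nuclear members were higher and 14 lower in 3B3-3l than in J1 in serum, against 21.5% and 17.2% of all genes, with a median of -0.07 beside 0.03 for all genes. In 2i, 20 were higher and 18 lower, against 23% and 22.9% of all genes, with a median of 0.05 beside 0.01. This median was 0.137 without J1 2i replicate 3, -0.009 without J1 2i replicate 2, and 0.012 and 0.031 without 3B3-3l 2i replicates 2 and 1. Both sets of shares were near or below the background. By edgeR 0 mitochondrial members were called in serum, with 2 at an unadjusted p under 0.05 and 0 by DESeq2. With no filter mt-Nd2 and mt-Nd5 were called higher in 3B3-3l in serum (adjusted p = 0.00606 and 0.0251), with the 6 libraries compared mt-Nd2 was (adjusted p = 0.0443), and without 3B3-3l serum replicate 1 mt-Nd2, mt-Nd5 and mt-Nd6 were (adjusted p = 0.0442, 0.0323 and 0.043). Without J1 serum replicate 2 mt-Nd2 was called (adjusted p = 0.0251). In 2i mt-Nd1 alone was called (0.30 ± 0.12, adjusted p = 0.0481), a call lost without any 1 of the 3 J1 2i libraries or without 3B3-3l 2i replicate 1, with an adjusted p of up to 0.288. The mt-Nd1 call was also lost in 5 of 9 alternative settings, among them DESeq2, scaling on nuclear genes and length offsets. With no filter mt-Nd2, mt-Nd5 and mt-Nd4l were called higher and mt-Atp6 lower in 2i (adjusted p = 0.00354, 0.0312, 0.0133 and 0.00125). Without 3B3-3l serum replicate 1, 36 members of all 105 were called in serum in place of 22. In both media 6 members were lower in 3B3-3l, Atp5c1, Atp5h, Ndufaf3, Ndufaf8, Uqcr10 and Uqcrq, and 3 were higher, Cox6b2, Ndufaf1 and Uqcrc2, against 8.31% and 7.92% of all genes. The Ndufaf1 calls were lost in 4 of 6 fits without 1 library in each medium, without replicate 1 or 3 of either line in serum and without replicate 1 or 2 of either line in 2i, with an adjusted p of up to 0.217. Its 2i call was also lost in 7 of 9 alternative settings, among them DESeq2, scaling on nuclear genes and length offsets. Its serum call was lost with the 6 libraries compared. The 2i call of Uqcrc2 was lost without any 1 of the 3B3-3l 2i libraries or without J1 2i replicate 1 or 2, with an adjusted p of up to 0.178.

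Of the 6 members lower in both media, 4 are on chromosome 11, whose genes as a whole had a median of -0.27 in serum and -0.25 in 2i. Atp5h, a stator subunit of the ATP synthase, read 186, 191 and 191 CPM in J1 serum, 206, 184 and 226 in J1 2i, 135, 121 and 121 in 3B3-3l serum and 154, 162 and 150 in 3B3-3l 2i. The lines did not overlap in either medium, with differences of -0.59 ± 0.07 in serum (adjusted p = 5.15e-06) and -0.40 ± 0.07 in 2i (adjusted p = 0.000124). Uqcrq, a small complex III subunit, read 107, 112 and 94.5 CPM in J1 serum, 121, 98.8 and 140 in J1 2i, 82.6, 75 and 65.0 in 3B3-3l serum and 81.5, 78.4 and 75.5 in 3B3-3l 2i. Again the lines were apart in both media, by -0.49 ± 0.11 (adjusted p = 0.00184) and -0.61 ± 0.11 (adjusted p = 0.000207). Ndufaf8, an assembly factor of complex I, differed by -0.71 ± 0.12 in serum and -0.74 ± 0.12 in 2i (adjusted p = 0.000319 and 0.000135). Uqcr10, another small complex III subunit, differed by -0.56 in serum (adjusted p = 0.000264) and -0.30 in 2i (adjusted p = 0.0149), where the 2i call was lost without 3B3-3l 2i replicate 3 or J1 2i replicate 3 (adjusted p of up to 0.0822).

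**Figure D5:**
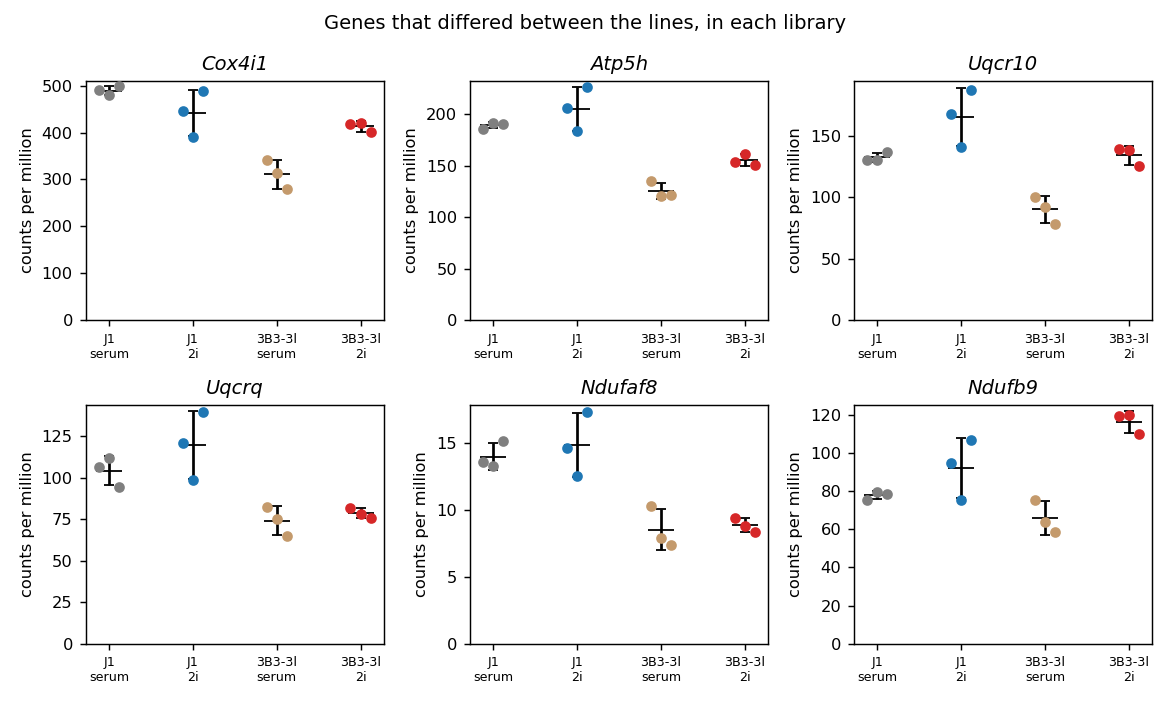
Levels in CPM of Cox4i1, Atp5h, Uqcr10, Uqcrq, Ndufaf8 and Ndufb9 in each library of the 4 groups. Points are libraries. Atp5h, Uqcr10, Uqcrq and Ndufaf8 were called lower in 3B3-3l in both media, and the 2i call of Uqcr10 was lost in some fits without 1 library. Cox4i1 was lower in 3B3-3l serum alone among the called differences.

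Members on other chromosomes differed too. Ndufaf3, an assembly factor on chromosome 9, read 12.3, 12.0 and 11.8 CPM in J1 serum, 17.5, 13.8 and 17.7 in J1 2i, 10.4, 8.74 and 8.57 in 3B3-3l serum and 11.3, 11.3 and 11.1 in 3B3-3l 2i. The lines were apart in each medium, by -0.39 ± 0.10 (adjusted p = 0.00487) and -0.54 ± 0.09 (adjusted p = 0.000184). Cox4i1 was lower in 3B3-3l in serum (-0.65 ± 0.08, adjusted p = 6.78e-06), beside a chromosome 8 median of -0.12, and the lines were not called apart in 2i (-0.10 ± 0.08). In 2i all 4 members on chromosome 6 were lower in 3B3-3l, with log2 differences of -0.37 to -0.22 beside a median of -0.41 over its genes, and the Ndufa4 call was lost without 3B3-3l 2i replicate 3 (adjusted p = 0.0603). The Ndufb2 call was lost without 3B3-3l 2i replicate 3 or J1 2i replicate 1 or 3, with an adjusted p of up to 0.147. Cox6b2 was higher in 3B3-3l in both media, by 0.43 ± 0.08 in serum (adjusted p = 0.000648) and 0.38 ± 0.08 in 2i (adjusted p = 0.000798).

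Partners and regulators outside the name rule were read from lists with 63 tested genes. In J1, 32 were called higher in 2i and 12 lower, and in 3B3-3l 27 higher and 5 lower. Between the lines, 5 were higher and 22 lower in 3B3-3l in serum, and 9 higher and 25 lower in 2i. The shares of all genes called higher and lower were 33.2% and 32.9% in J1, 32.7% and 32.7% in 3B3-3l, 21.5% and 17.2% between the lines in serum and 23% and 22.9% in 2i. Of 18 tested complex IV assembly factors, 11 were higher in J1 and 10 in 3B3-3l. Coa3 rose by 0.71 in J1 (adjusted p = 7.67e-07) and 0.51 in 3B3-3l (adjusted p = 4.69e-05). Uqcc1, which helps build complex III, rose by 0.58 and 0.59 (adjusted p = 1.46e-07 and 1.16e-07). Of 14 genes for mitochondrial transcription, RNA stability and genome copying, 6 were higher and 4 lower in J1, and 3 higher and 3 lower in 3B3-3l. Top1mt, the mitochondrial topoisomerase, fell in both lines, by 0.80 and 1.18 on the log2 scale (adjusted p = 6.98e-07 and 1.01e-08). Polrmt, the mitochondrial RNA polymerase, fell by 0.27 and 0.15 (adjusted p = 0.00134 and 0.0469), and the 3B3-3l call was lost without 3B3-3l 2i replicate 1 or 3 or 3B3-3l serum replicate 1, with an adjusted p of up to 0.24.

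Of 10 nuclear regulators of the chain tested, 4 were higher and 3 lower in J1, and 3 were higher in 3B3-3l, where 33.2% and 32.9% of all genes were called in J1 and 32.7% and 32.7% in 3B3-3l. Esrrb, an oestrogen-related receptor of pluripotent cells, was at 654 ± 25 CPM in J1 serum and 904 ± 43 in J1 2i, and at 547 ± 22 and 938 ± 32 in 3B3-3l (SD, n = 3). It rose by 0.47 in J1 (adjusted p = 8.38e-07) and 0.78 in 3B3-3l (adjusted p = 1.71e-09). Ppargc1b, a coactivator of such receptors, rose by 1.09 and 0.44 (adjusted p = 8.9e-08 and 0.000949). Nrf1 rose by 0.18 in J1 (adjusted p = 0.0032) and by 0.11 in 3B3-3l (adjusted p = 0.0499), where the call was lost without any 1 of the 6 libraries, with an adjusted p of up to 0.184. Yy1 fell by 0.19 in J1 (adjusted p = 0.00703), and its difference of -0.07 in 3B3-3l was not called. Cycs, the cytochrome c carrier, rose by 0.55 in J1 (adjusted p = 0.00103) and differed by 0.09 in 3B3-3l, which was not called. Partners and regulators were not set beside the medians of their chromosomes. The part of the chromosome-wide differences in their values was not tested. The ATP synthase inhibitor Atpif1 was at 160 ± 1.4 CPM in J1 serum and 137 ± 18 in J1 2i, and fell by 0.23 (adjusted p = 0.0338). That call was lost without any 1 of 5 of the 6 J1 libraries, J1 2i replicate 3 being the exception, with an adjusted p of up to 0.174.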

How the data were processed

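RNA-seq was measured in 12 libraries, 3 in each of 4 groups. The authors quantified reads with Sailfish against mouse transcripts and deposited gene-level estimated counts, which are not whole numbers, and per-library transcript tables with estimated counts, TPM and effective lengths. Ensembl identifiers were matched to symbols for 85.6% of genes, which held 98.4% of reads. The members and gene lists were chosen with earlier results of these data known.

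Estimated counts were rounded and tested with edgeR 4.0.16 (quasi-likelihood F test, TMM scaling) in R 4.3.3, in 1 fit over all 12 libraries with 5 contrasts. Calls needed an adjusted p (Benjamini-Hochberg) under 0.05, taken over the 17885 genes that the default filter on low counts left. CPM was computed from the counts and TMM-scaled library sizes. RPKM was computed from the counts and the deposited effective lengths, and the deposited TPM values were not used for tests, since transcripts with effective lengths under 50 bases took 18.8% to 50.2% of TPM. Totals ran from 37050652 to 44515395 reads, so 3 counts equal 0.0674 to 0.0810 CPM, and these floors cover counting error only. The estimate of variation between replicates was 6.49% (biological coefficient of variation).

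The genes named were drawn from sets. These held, in each contrast, the 4 highest and 4 lowest called members with at least 10 CPM in the highest group. They also held all mitochondrial members, isoform sets, catalytic or cofactor-carrying members with the inhibitor Atpif1, and untested members. Some genes of the sets, such as mt-Co2, Cox8a and Ndufb4, are not given singly, but counts over named members include them. Atp5c1, Ndufb2, Ndufb7, Ndufs5, Uqcrc2 and the partner and regulator genes were named after their values were seen. Near-identical copies were found with BLAST 2.17.0+ (95% identity over 80% of the shorter transcript). The script for the test was tested on simulated data. Replicate numbers did not pair the libraries. Alternatives changed scaling, filter, test (DESeq2 1.42.0), transcript lengths, libraries and call rule. Adding copies and leaving out chromosomes 6, 8 and 11 were chosen after seeing the data.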

Additional observations from a re-analysis of the deposited data

Results flagged for a closer look

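The 2i effects of the lines differed for 15 of the named members by the edgeR test of the difference itself, given here as the log2 effect in 3B3-3l minus that in J1. Ndufa4l2 had a difference of -3.181 (effects of 0.48 in J1 and -2.70 in 3B3-3l), and Cox4i2 one of -0.836 (-0.74 and -1.58). The assembly factors of complex I were on both sides, with Ndufaf7 at -0.401 (0.20 and -0.20), Ndufaf6 at -0.33 (-0.16 and -0.49), Atp5sl at 0.4 (-0.33 and 0.07) and Ndufaf5 at 0.469 (0.11 and 0.58). Atp5sl fell in J1 from 39.3, 39.5 and 39.6 CPM to 31.0, 28.4 and 34.7.

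Ndufa9 had a difference of -0.304 (0.69 and 0.38) and Ndufa4 one of -0.245 (0.72 and 0.47), both on chromosome 6, where the median over all genes tested was -0.44. Cox4i1 had one of 0.557 (-0.15 and 0.41), on chromosome 8, where that median was 0.23. The part of the chromosomes in these values was not tested.

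Sdha had a difference of 0.172 (0.34 and 0.52), a call lost in 10 of 12 fits without 1 library, kept only without J1 2i replicate 3 or J1 serum replicate 2, with an adjusted p of up to 0.196. The Sdha call was also lost in 4 of 8 alternative settings, among them scaling on nuclear genes and no filter on low counts. Uqcrb had one of 0.369 (0.56 and 0.93), Cox7a2 one of 0.394 (0.31 and 0.71) and Ndufb9 one of 0.575 (0.24 and 0.82). Atp5g1 had one of 0.453 (0.32 and 0.78), a call lost without 3B3-3l 2i replicate 2 or J1 serum replicate 2, with an adjusted p of up to 0.0519. Ndufa12, an accessory subunit of complex I, had one of 0.522 (-0.11 and 0.41). With length offsets that difference was 0.31 and not called (adjusted p = 0.461), with a 3B3-3l effect of 0.05 (adjusted p = 0.84), and a near-identical copy, Gm15920, held 748 reads on average against 1369 for the gene.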

How the results depend on the processing

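Members called numbered 60 (2i in J1), 75 (2i in 3B3-3l), 22 (lines in serum), 39 (lines in 2i) and 21 (difference of the effects). With a change of at least 1.5-fold also required they were 8, 16, 4, 4 and 2. The serum count was 39 both with no filter on low counts and with only the 6 libraries compared. Leaving out 1 library gave 48 to 63, 67 to 79, 16 to 36, 28 to 46 and 13 to 42. Nuclear medians then ran from 0.140 to 0.300, 0.308 to 0.378, -0.119 to -0.038, -0.009 to 0.137 and 0.062 to 0.196. Mitochondrial medians ran from -0.143 to 0.051, -0.074 to 0.124, -0.042 to 0.220, 0.059 to 0.206 and -0.114 to 0.098. The mitochondrial share ran from 1.241% to 1.422% in J1 serum, 1.211% to 1.338% in J1 2i, 1.226% to 1.387% in 3B3-3l serum and 1.187% to 1.298% in 3B3-3l 2i. Taken of reads outside the 100 nuclear genes with the most reads, it was 1.643%, 1.553%, 1.626% and 1.525%. With the replicate block the counts were 53, 72, 23, 32 and 17 and the nuclear medians 0.234, 0.339, -0.075, 0.052 and 0.113. The numbers share no source in the labels, and same-numbered libraries correlated at -0.0961 to 0.0483. Without members on chromosomes 6, 8 and 11 the counts were 53, 65, 17, 29 and 17. Of 133 calls of named members, 98 were kept in every fit without 1 library. Under the alternatives of scaling, filter, test, transcript lengths, libraries compared, replicate block and added copies, 108 were kept in every setting. The cause of these changes was not tested.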
